A study of Caenorhabditis elegans with 2 samples.

Results

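The 72 protein-coding genes of Caenorhabditis elegans whose names start with his- carry the name used for core histone, H3.3 and H1 genes. That name alone set which of 19973 protein-coding genes on the 6 nuclear chromosomes were members. The choice of this group was made with earlier results of these data known. These genes were examined in a chromatin immunoprecipitation sequencing (ChIP-seq) experiment on NHR-2 in mixed-stage embryos. NHR-2 is a zinc-finger transcription factor of the nuclear hormone receptor family. The libraries were 2 biological replicates of a single group, made from whole embryos of mixed sex of strain OP99, unc-119(ed3) III; wgIs99, in which wgIs99 is an integrated transgene that carries nhr-2. The labels speak of eGFP-nhr-2 in one field and give nhr-2 as the antibody in another, so the antibody is not settled by them, and the promoter that drives the transgene is not given in the sources used here. The control that the labels point to was not analysed here, so every comparison is between places in the genome and none is between groups of animals.

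Core histones, H2A, H2B, H3 and H4, form the protein spool on which DNA is wound, and the linker histone H1 binds where the DNA enters and leaves it. Cells need new core histones whenever they copy their DNA, and the early embryo, which divides quickly, has a high demand for them. In C. elegans most core histone genes lie in clusters and are arranged head to head, H2A with H2B and H3 with H4, so that a short stretch of DNA serves as the promoter of both neighbours. Many of these genes exist as near-identical copies. H3.3 is a variant of H3 that is put into chromatin outside DNA replication, and its genes stand mostly alone.

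The measurement used here is a list of 1861 peaks that the authors kept after a test of irreproducible discovery rate (IDR), called thresholded peaks below. There are also 3 lists of 30000 candidate regions each, before that threshold, for the series as a whole and for each replicate. Each region has a summit and a signal, which is the authors' own enrichment score, and a rank by that signal, with 1 the strongest. Signals are read within a list and not set as levels across lists, and the depth of sequencing is unknown because no list holds numbers of reads. A gene counted as bound if the summit of a thresholded peak lay between 1000 bp upstream and 200 bp downstream of its 5′ end, and this stretch is its promoter window. All coordinates are on ce11. The thresholded signals began at 51.6 and had a median of 83.3, and the 664 nuclear peaks with a summit in any promoter window had a median of 73.6.

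NHR-2 peaks lay at 12 of the 72 histone genes, through 7 distinct peaks. Of these, 5 lay in the shared stretch between head-to-head neighbours and account for 10 genes, and the other two lay upstream of the H4 gene his-37 and the H3 gene his-42. Among all protein-coding genes 4.16% were bound. The letters under these summits are shown first, since 6 of the 7 hold a common word nearby, which was picked from 5 of them. Sequences are 151 bases centred on the summit, on the plus strand, read from the WBcel235 assembly of the C. elegans genome. Capitals mark 2 words: ATGTGTCCC or its reverse complement GGGACACAT, the longest word that all 5 head-to-head peaks share, and AGGTCA, a half-site to which many nuclear receptors bind. Those at thresholded peaks, from the strongest to the weakest signal, were as follows; that of his-67/his-68 is not shown.
his-31/his-32, chrIV:8334095-8334245: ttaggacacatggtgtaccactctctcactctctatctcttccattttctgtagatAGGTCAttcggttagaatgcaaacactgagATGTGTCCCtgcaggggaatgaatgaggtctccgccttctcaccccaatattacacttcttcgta
his-4/his-3, chrV:16040558-16040708: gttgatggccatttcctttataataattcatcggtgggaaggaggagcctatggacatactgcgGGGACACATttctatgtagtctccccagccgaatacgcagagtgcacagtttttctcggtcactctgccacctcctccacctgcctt
his-60/his-59, chrIV:7488053-7488203: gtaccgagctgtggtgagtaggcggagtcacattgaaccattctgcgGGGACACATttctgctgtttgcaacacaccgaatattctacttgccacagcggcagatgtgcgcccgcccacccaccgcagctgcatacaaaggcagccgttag
his-61/his-62, chrIV:7486318-7486468: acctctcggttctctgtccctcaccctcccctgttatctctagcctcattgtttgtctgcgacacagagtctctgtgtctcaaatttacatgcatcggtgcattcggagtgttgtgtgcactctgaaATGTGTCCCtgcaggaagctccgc
his-37, chrV:9546951-9547101: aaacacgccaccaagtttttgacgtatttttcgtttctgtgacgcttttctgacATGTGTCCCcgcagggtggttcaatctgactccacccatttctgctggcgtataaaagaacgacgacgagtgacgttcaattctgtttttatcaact
his-42, chrII:13829231-13829381: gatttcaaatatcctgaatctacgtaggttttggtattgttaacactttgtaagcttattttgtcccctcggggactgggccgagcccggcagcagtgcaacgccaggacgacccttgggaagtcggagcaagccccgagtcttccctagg

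For contrast, the next 3 sequences lie at series candidate regions that missed the threshold, in the gaps of 2 H3/H4 pairs and upstream of his-24, the H1 gene.
his-2/his-1, chrV:16042290-16042440: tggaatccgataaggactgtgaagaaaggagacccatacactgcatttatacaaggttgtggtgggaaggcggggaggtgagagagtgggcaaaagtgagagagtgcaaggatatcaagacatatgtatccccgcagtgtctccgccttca
his-63/his-64, chrIV:11406943-11407093: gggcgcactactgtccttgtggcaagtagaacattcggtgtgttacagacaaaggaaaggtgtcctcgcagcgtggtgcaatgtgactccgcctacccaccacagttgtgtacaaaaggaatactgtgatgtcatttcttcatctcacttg
his-24, chrX:14489973-14490123: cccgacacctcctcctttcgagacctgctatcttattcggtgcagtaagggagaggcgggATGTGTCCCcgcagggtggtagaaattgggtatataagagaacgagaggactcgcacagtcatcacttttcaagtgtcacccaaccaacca

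The last pair of sequences is centred on gaps with no candidate region in any list, an H3/H4 gap of which the genome holds 3 exact copies and an H2A/H2B gap of which it holds 4.
his-14/his-13, chrII:13819998-13820148: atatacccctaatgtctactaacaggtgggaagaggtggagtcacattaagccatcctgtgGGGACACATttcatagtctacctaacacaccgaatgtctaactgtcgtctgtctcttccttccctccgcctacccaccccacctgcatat
his-21/his-22, chrV:8892337-8892487: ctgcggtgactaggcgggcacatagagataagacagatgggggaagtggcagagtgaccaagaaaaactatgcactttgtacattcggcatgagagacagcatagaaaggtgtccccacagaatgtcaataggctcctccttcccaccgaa

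The 72 genes fell into 19 clusters when neighbours under 5 kb apart were joined, 14 of them with 2 or more genes and 5 with a single gene. A thresholded peak lay at 6 clusters, and 13 had none. Clusters held from 1 to 13 genes, and no share for other regions of like size was computed. By histone, 3 of 17 H2A genes (his-68, his-61 and his-3), 2 of 16 H2B genes (his-62 and his-4), 3 of 15 H3 genes (his-42, his-59 and his-32) and 4 of 16 H4 genes (his-67, his-60, his-31 and his-37) were bound. None of the 5 H3.3 genes was bound, nor was the H1 gene, nor were his-73 and his-39, short genes that were given no histone class. All 4 core histones were therefore represented, with shares that rest on few genes each. Of the bound genes, 10 share 5 peaks between head-to-head neighbours of different histones, so these shares are not separate events. By chromosome, 6 of 22 histone genes on IV were bound, beside 3.05% of all genes there, 3 of 27 on V, beside 2.26%, 1 of 14 on II, beside 3.83%, and 2 of 2 on I, beside 5.66%. None of 3 on III was bound, beside 5.61%, and none of 4 on X, beside 6.41%.

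**Figure D1:**
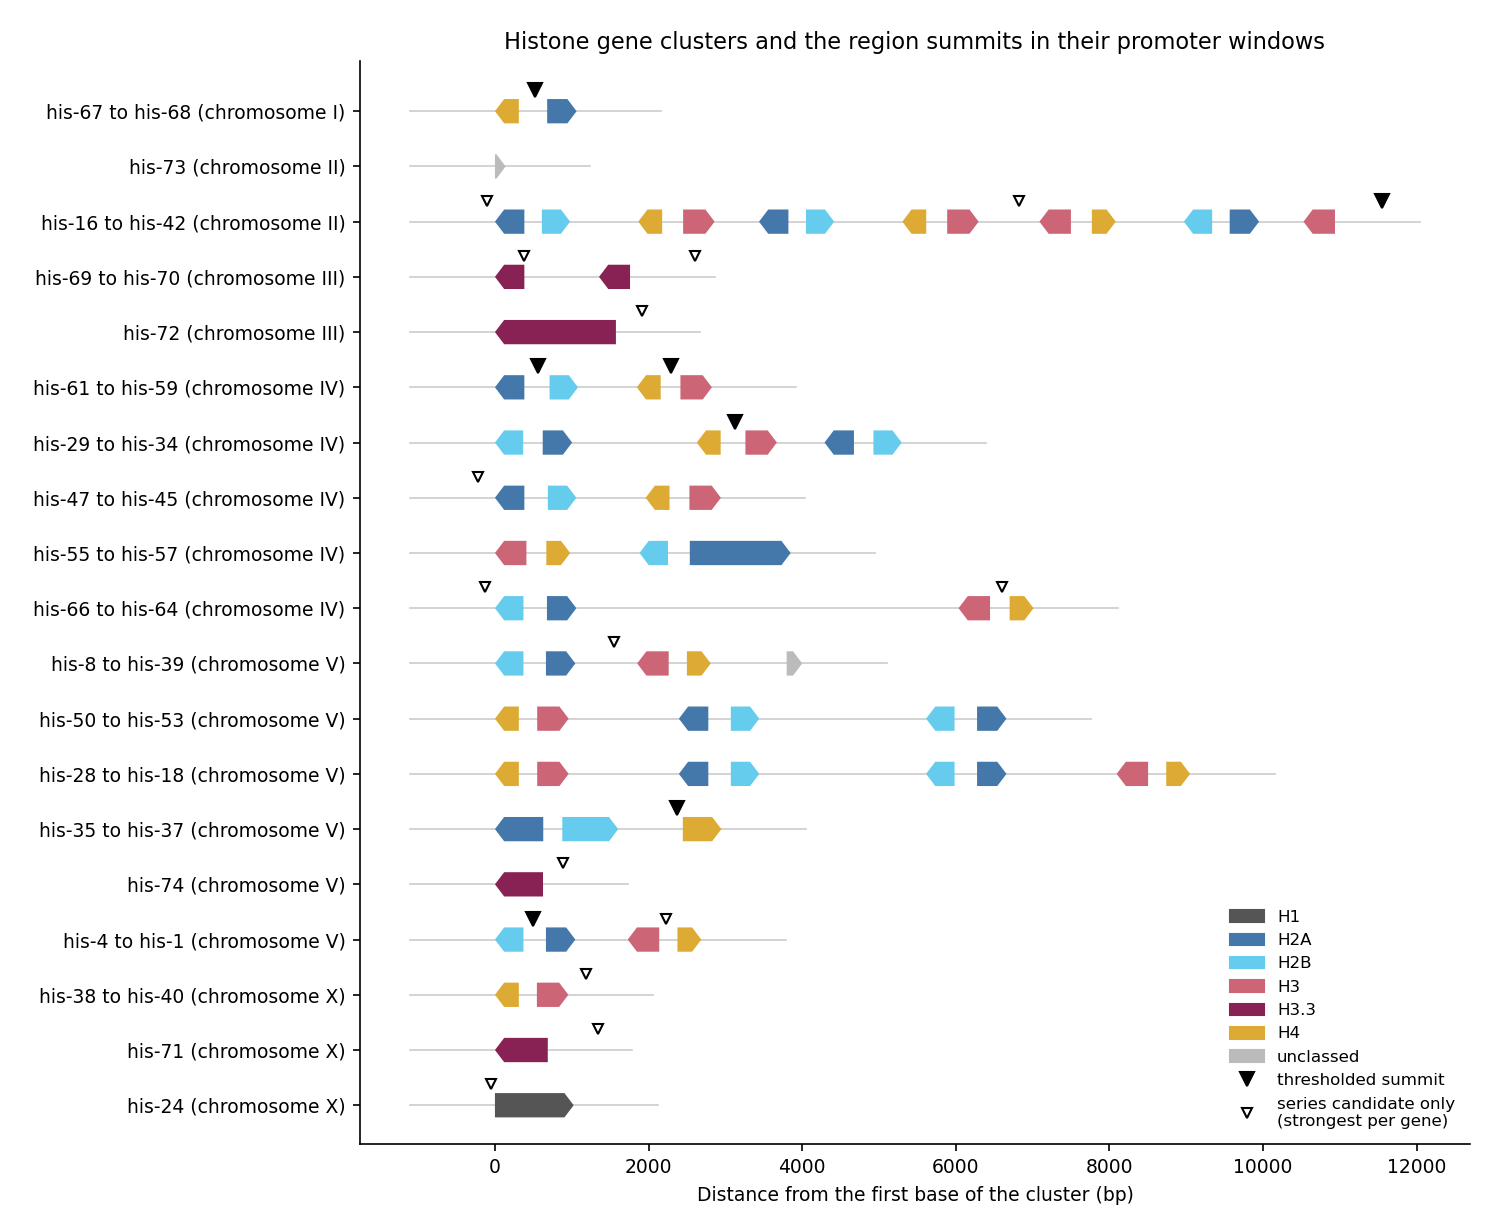
Histone genes in their 19 clusters, 1 line per cluster, against the distance in bp from the first base of the cluster; arrows point in the direction of transcription and are coloured by histone. Filled triangles are thresholded summits in a promoter window and open triangles are the strongest series candidate summits where a gene had no thresholded one; 7 filled triangles stand at 6 clusters, and 5 of them lie between genes that point away from each other.

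The strongest histone peak lay between his-67, an H4 gene, and his-68, an H2A gene, on chromosome I from 9988921 to 9989102. This is the sole head-to-head pair that joins H4 with H2A. Its signal was 187 and its rank 262 in the thresholded list, with a signal of 89.8 at rank 349 in replicate 1 and of 100.3 at rank 187 in replicate 2. The summit lay 216 bp upstream of his-67 and 153 bp upstream of his-68, and also in the promoter window of alg-5, which encodes an Argonaute protein. Replicate summits were 67 bp apart, the widest distance among the 7 peaks.

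The next peak lay between the H4 gene his-31 and the H3 gene his-32, on chromosome IV from 8333980 to 8334359, in a cluster of 6 genes. It had a signal of 134 at rank 463, with 94.6 at rank 318 in replicate 1 and 41.9 at rank 901 in replicate 2. It thus ranked higher in replicate 1, while staying among the first 1861 in both. The gaps of the H2A/H2B pairs on either side, his-29/his-30 and his-33/his-34, held no region in any list and are exact copies of each other.

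A peak between the H2B gene his-4 and the H2A gene his-3, on chromosome V from 16040582 to 16040688, had a signal of 99.0 at rank 727. It ranked 795 in replicate 1 with a signal of 52.4 and 767 in replicate 2 with 45.8, and the replicate summits were 4 bp apart. The adjacent H3/H4 pair of that cluster, his-2 and his-1, had a series candidate below the threshold, with a signal of 43.4 at rank 2419. Its ranks were 2940 in replicate 1 and 3489 in replicate 2, so both libraries held a region there and neither placed it among their 1861 strongest.

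Both pairs of a 4-gene cluster on chromosome IV were bound, and no other cluster had 2 histone peaks. Between the H4 gene his-60 and the H3 gene his-59 a peak from 7487938 to 7488317 had a signal of 84.1 at rank 922, with 51.5 at rank 816 in replicate 1 and 34.8 at rank 1250 in replicate 2. Between the H2A gene his-61 and the H2B gene his-62 a peak from 7486203 to 7486582 had a signal of 75.1 at rank 1105, with 37.3 at rank 1324 in replicate 1 and 37.8 at rank 1076 in replicate 2. In this cluster, genes of all 4 core histones thus had a thresholded summit within 176 bp upstream of the 5′ end.

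The other two peaks did not lie between head-to-head histone genes. His-37, an H4 gene on chromosome V, had a peak from 9546836 to 9547215 whose summit was 79 bp upstream of its annotated 5′ end. This was the shortest such distance among the 7 thresholded peaks. Its signal was 73.0 at rank 1156, with 31.7 at rank 1656 in replicate 1 and 46.0 at rank 760 in replicate 2. The peak called for his-42, an H3 gene on chromosome II, ran from 13829116 to 13829495, 609 bp upstream at its summit, and had the lowest signal of the 7, 65.4 at rank 1332, with ranks of 1325 and 1634 in the replicates. That summit lay inside 2 annotated RNA genes on opposite strands, the small nuclear RNA gene C47F8.9 and the noncoding RNA gene R05D7.8, so its assignment to his-42 rests on the width of the window. With a window from 500 bp upstream to 100 bp downstream his-42 was no longer called and the other 11 genes were.

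All 7 peaks ranked within the first 1861 candidate regions in each replicate. Ranks ran from 318 to 1656 in replicate 1 and from 187 to 1634 in replicate 2. Replicate summits were 4 to 67 bp apart with a median of 22 bp, beside a median of 29 bp over the 1830 nuclear thresholded peaks with a region in both replicates. GC content within 75 bp of the summit ran from 44.4% to 56.3% with a median of 51.7%, beside a median of 45.0% over 1843 nuclear peaks. Their signals ran from 65.4 to 187 with a median of 84.1, close to the median of 83.3 over all thresholded peaks.

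**Figure D2:**
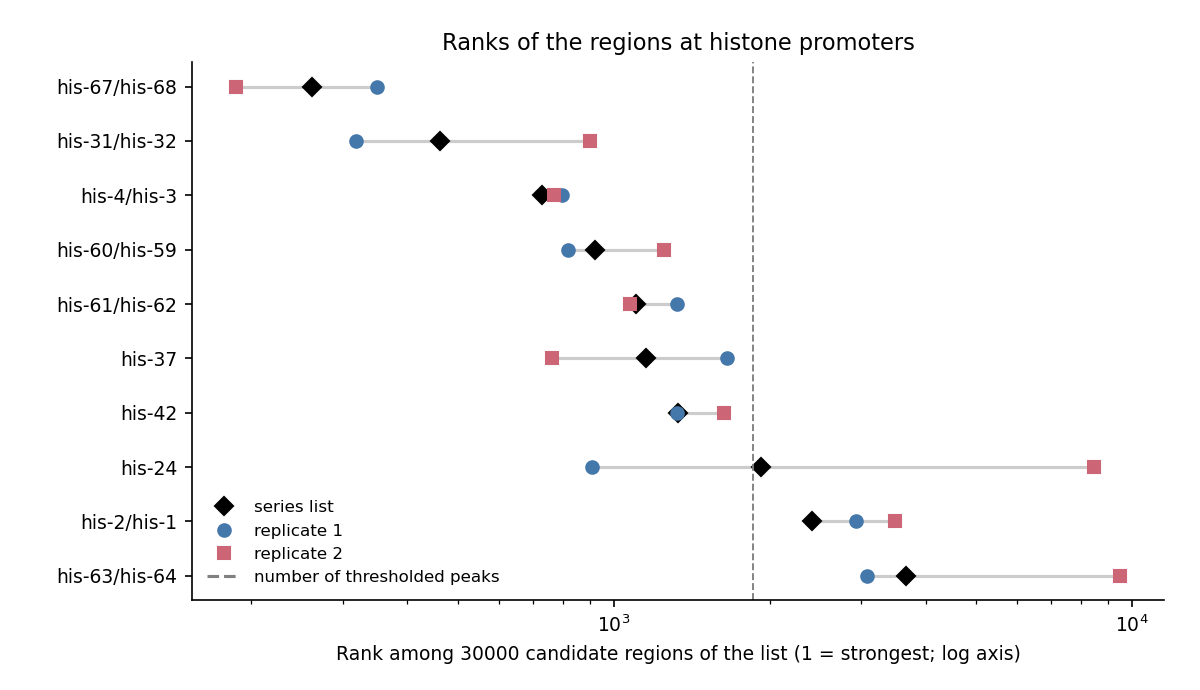
Rank of each region, on a log axis with 1 the strongest, in the series list (diamonds), in replicate 1 (circles) and in replicate 2 (squares), for the 7 thresholded histone peaks and for 3 candidate regions below them. The dashed line marks 1861, the number of thresholded peaks; all markers of the upper 7 lie to its left, while his-24 has replicate 1 at rank 909 and replicate 2 at rank 8443.

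Histone genes formed 31 head-to-head pairs, which held 62 of the 72 genes. A thresholded summit lay in 5 of the 31 gaps, beside 7.19% of the 1696 head-to-head pairs of protein-coding genes with 5′ ends under 1000 bp apart. A series candidate lay in 7 of the gaps, beside 37.3% of such pairs. Among 16 H2A/H2B pairs 2 were bound, and among 14 H3/H4 pairs 2 were bound and 4 had a series candidate. The bound gaps were 256 to 368 bp long with a median of 321 bp, beside a median of 258 bp over all 31, and the summits lay near the middle, at 40.4% to 58.7% of the gap. The bound gaps were not copies of each other, with pairwise identities of 52.7% to 65.5%.

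**Figure D3:**
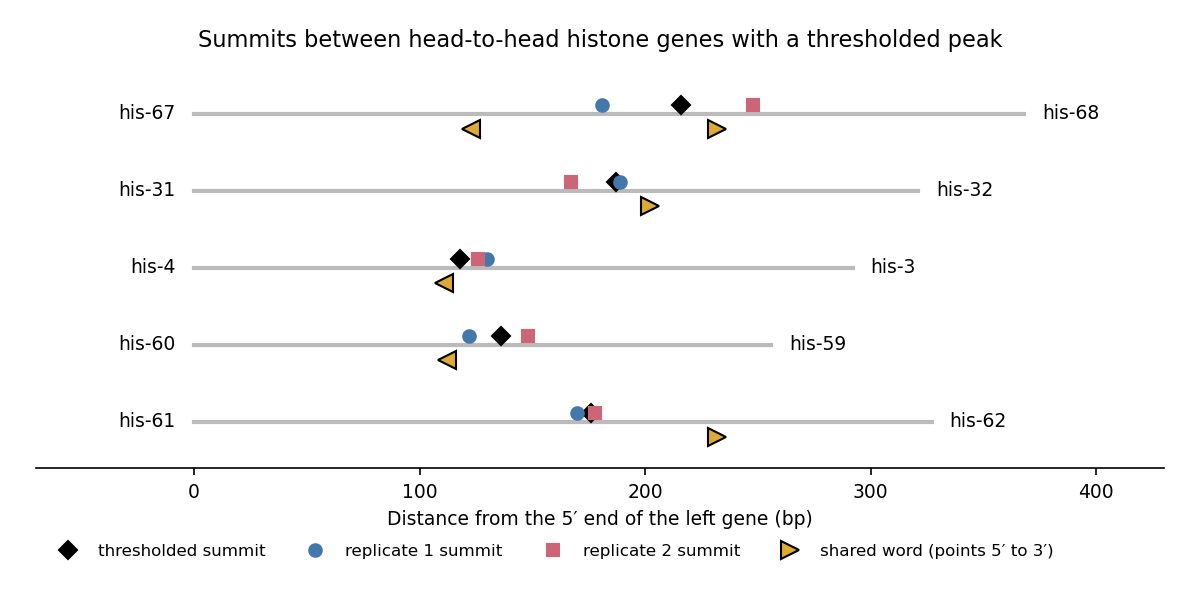
The 5 head-to-head gaps with a thresholded peak, drawn to scale as the distance in bp from the 5′ end of the left gene, with the thresholded summit (diamond), the replicate summits (circle and square) and the shared word (arrowheads). Summits sit at 40.4% to 58.7% of the gap, and the nearest copy of the word lies 7 to 56 bp from the thresholded summit. The word was picked from within 75 bp of these 5 summits, so it lies near them by construction.

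Whether a gap held a region went with how much of its sequence is found elsewhere in the genome. As a measure, the share of 36-base words that occur once in the genome was taken, since a read from an exact copy cannot be placed by its sequence. How reads that match several places were treated is not given in the sources used here. Of 8 gaps with 90% or more of such words, 5 had a thresholded summit and 6 a series candidate. Of 3 gaps with 50% to under 90%, none had a thresholded summit, 1 had a series candidate, and all 3 had a region in replicate 1 and 2 of them in replicate 2. Of 20 gaps under 50%, none held a thresholded, series, replicate 1 or replicate 2 summit. All 5 bound gaps were 100% unique, and 17 gaps have 2 or more exact copies. The peak of his-42, which lies in no such gap, had 48.1% unique words, so a thresholded peak was also listed over partly repeated sequence. The absence of peaks from the repeated gaps can therefore not be told apart from an absence of reads that could be placed there, and it gives no level of NHR-2 for those genes.

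**Figure D4:**
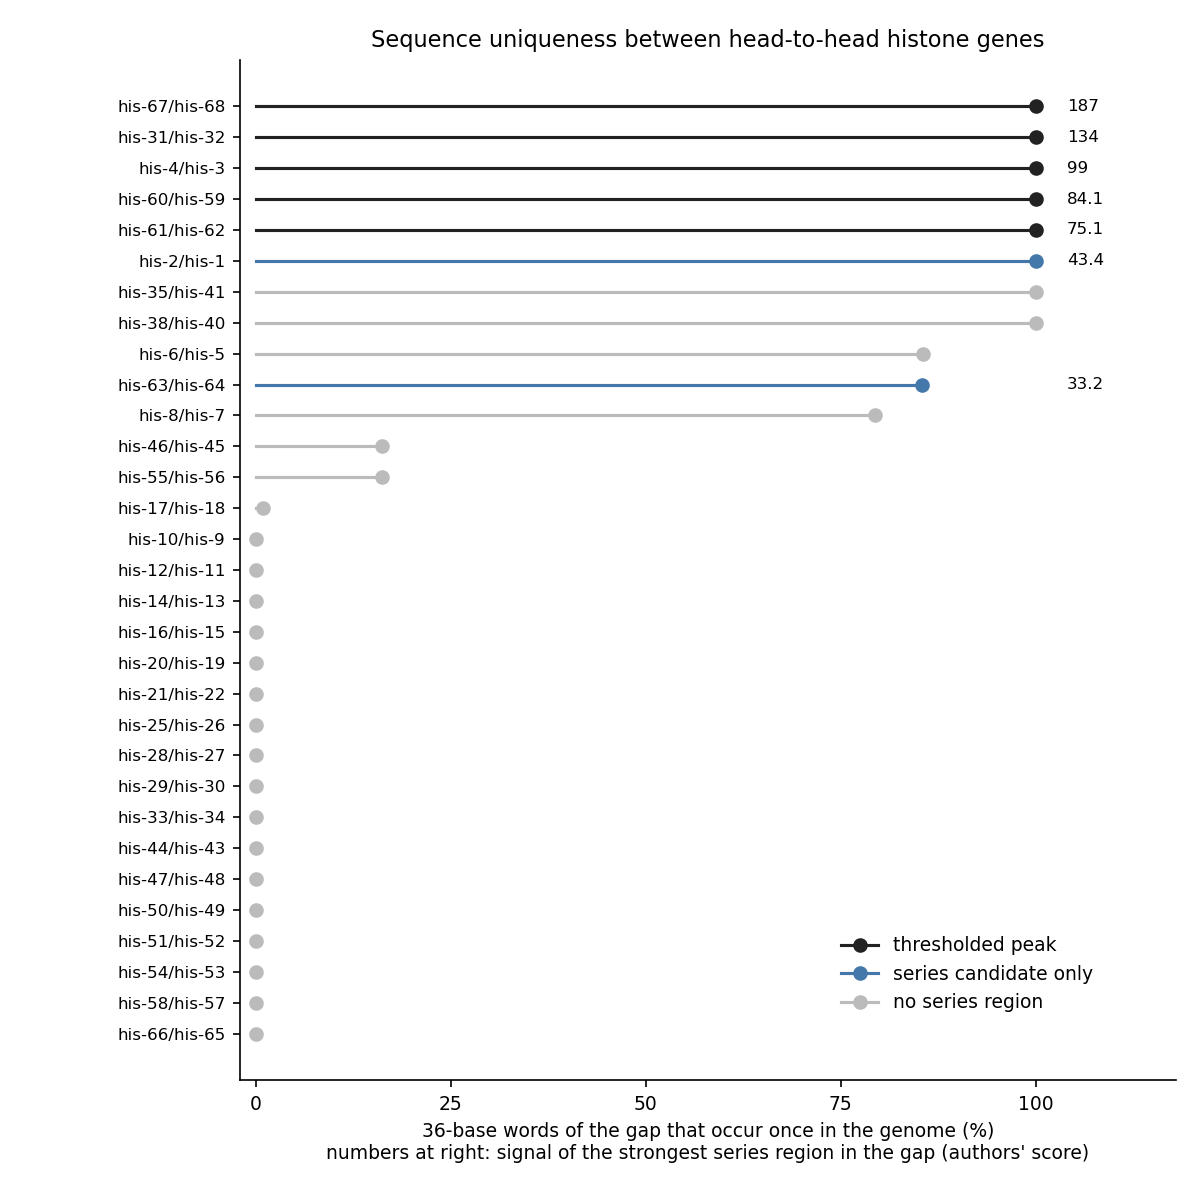
Share of 36-base words that occur once in the genome, in percent, for each of the 31 gaps between head-to-head histone genes, with the signal of the strongest series region in the gap at the right. The 5 gaps with a thresholded peak stand at 100%, and the 20 gaps under 50% have no region.

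Uniqueness did not by itself go with a peak. The gaps of his-35/his-41, an H2A/H2B pair, and of his-38/his-40, an H4/H3 pair, were 100% unique and held no series candidate. That of his-2/his-1 was 100% unique and held the candidate of signal 43.4. The gap of his-63/his-64, 85.4% unique, held a candidate of signal 33.2 at rank 3668, with ranks of 3081 and 9485 in the replicates. At his-6/his-5, 85.6% unique, the replicates held regions at ranks 5714 and 21090, and at his-8/his-7, 79.4% unique, replicate 1 held 1 at rank 13727. So at gaps whose reads could mostly be placed, values ran from a signal of 187 to no region.

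Whole promoter windows, which reach beyond the gaps, were read in the same way. The windows of the 12 bound genes had 66.4% to 100% unique words with a median of 86.6%, those of the 16 genes with a series candidate alone a median of 75.5%, and those of the 44 genes with no series candidate a median of 1.63%. Over all protein-coding genes the median was 100%. Among histone genes with under 50% unique words, 0 of 40 were bound, among those with 50% to under 90%, 9 of 22, and among those with 90% or more, 3 of 10. In the same classes of all protein-coding genes 0.977%, 1.78% and 4.54% were bound. The highest share among histone genes was thus in the middle class of windows, whereas among gaps it was in the most unique one. Of the 40 genes in the lowest class, 4 had a series candidate, his-15, his-26, his-48 and his-65. The 22 and the 10 genes include neighbours that share a peak, so these counts are of genes and not of separate events. In all, 28 of the 72 histone genes had a series candidate in the window, beside 37.9% of all protein-coding genes. There were 38 with no region in the series list or in either replicate list. No share of all protein-coding genes was computed for that count, so it gives no trait of histone genes.

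The replication-independent H3.3 genes had no thresholded peak, beside 4.16% of all protein-coding genes that were bound. Each of the 5 had a series candidate, beside 37.9% of all protein-coding genes. With so few genes these counts give no trait of the class. The strongest was at his-72, one of the main H3.3 genes, with a signal of 28.0 at rank 5073 and ranks of 3077 and 11825 in the replicates. His-71, the other main H3.3 gene, had a signal of 20.3 at rank 10737, and his-70, his-69 and his-74 had 19.8, 18.5 and 15.1. All 5 candidates were below the signal at which the thresholded list began, and their windows were 87.7% to 100% unique. A thresholded peak of signal 52.8 lay 1084 bp upstream of his-72, in the promoter window of rpt-6, a proteasome subunit gene, and a window from 2000 bp upstream to 500 bp downstream counted it for his-72.

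His-24, the H1 gene on chromosome X, stood closest to the threshold among unbound histone genes. Its candidate summit, 46 bp upstream of the 5′ end, had a signal of 50.2 at rank 1929, where the thresholded list ended at rank 1861. Replicate 1 placed it at rank 909 with a signal of 48.0 and replicate 2 at rank 8443 with 16.1, so the region rests mainly on replicate 1. A stronger thresholded peak, of signal 247, lay 3465 bp upstream.

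Among the other clusters with no thresholded peak, the strongest candidates in a window were weak. They had a signal of 33.2 in the cluster from his-66 to his-64, of 21.9 at rank 8941 in that of his-38 and his-40, of 19.2 at rank 12248 in that from his-47 to his-45, and of 13.5 at rank 25408 in that from his-8 to his-39. The clusters from his-55 to his-57, from his-50 to his-53 and from his-28 to his-18, and the lone his-73, had no series candidate. In those 3 clusters every gap had under 50% unique words, and the window of his-73 was 85.8% unique.

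A set of 6 short words was then searched under the peaks. AGGTCA lay within 75 bp of 1 of the 7 histone summits, that of his-31/his-32, beside 17.3% of nuclear thresholded summits. GAGAGA, the word of GAGA-type factors, was at 2 (his-67/his-68 and his-31/his-32), beside 30% of all. The E-box words CAGGTG and CAGCTG were at 1 each, his-4/his-3 and his-60/his-59, beside 14.4% and 6.35%, and CACGTG was at 0, beside 4.88%. TATAAA, the TATA box word, was at 2, his-4/his-3 and his-37, beside 8.9%. Every word was searched on both strands, CAGCTG and CACGTG are their own reverse complements, and overlaps between words were not removed. No test of these shares was run.

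The longest word within 75 bp of all 5 head-to-head summits was ATGTGTCCC, 9 bases long. It was picked from those 5 peaks after their values were seen, so its presence there is a description and supports nothing. It was also at his-37, which was not used to pick it, and not at his-42, which makes 6 of 7 histone peaks. Of all nuclear thresholded peaks 12 held it, or 0.651%, and the other 6 of those 12 lay elsewhere, 0.327% of 1836 peaks. In stretches of 151 bp at the middle of all promoter windows it occurred in 0.0401%. Those stretches lie farther upstream of their genes than the word does in the histone gaps. Their share is therefore no measure of how common the word is near 5′ ends. At the 5 head-to-head summits, a place within 75 bp was fixed by the way the word was picked, so only the distances inside that limit are given. Its centre was 16 bp from the summit at his-67/his-68, where a further copy lay at 93 bp, 15 bp at his-31/his-32, 7 bp at his-4/his-3, 24 bp at his-60/his-59, 56 bp at his-61/his-62 and 17 bp at his-37. At the candidate region of his-24 it was 11 bp from the summit.

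ATGTGTCCC occurs 399 times on the nuclear chromosomes, on either strand, and 24 of these places, or 6.02%, lie in a histone promoter window. It was in the windows of 43 of the 72 histone genes and of 85 of the 19901 other protein-coding genes, or 0.427%. Since the word was picked from the 5 bound gaps, their 10 genes hold it by construction, and a split of bound histone genes by the word shows nothing further. Of the 85 other genes 7 were bound, or 8.24%, beside 4.10% of other genes without it, so most promoters that hold the word had no thresholded peak. The his-67/his-68 summit, used to pick the word, also lay in the window of alg-5. A further peak that held the word lay in the windows of both fbxa-153 and str-12. The 7 may thus include a gene fixed by the picking and genes that share a peak. The gap between 8.24% and 4.10% is therefore no independent measure of binding at the word. Among the 31 gaps, 20 held the word: the 5 from which it was picked, his-6/his-5, and 14 with under 50% unique words. In those 14 no list had a region. The gap of his-6/his-5, 85.6% unique, held no thresholded or series summit, and replicate regions at ranks 5714 and 21090. A match is a description of the letters in a window, and whether NHR-2 or another protein contacts the word was not tested.

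Further histone and histone supply genes formed a list of 27 that are not named his-. A thresholded summit lay at 3 of them, beside 4.16% of all protein-coding genes, and a series candidate at 15, beside 37.9%. Htz-1, the gene of the H2A variant H2A.Z, had a signal of 99.8 at rank 718, with ranks of 1048 and 736 in the replicates, 335 bp upstream and also in the window of wapl-1. Cdl-1, which encodes the worm homologue of the protein that binds the stem-loop of histone messenger RNAs, had a signal of 94.4 at rank 781, with ranks of 578 and 1826, 462 bp upstream. Hil-7, a gene for an H1-like linker histone, had 60.4 at rank 1472, with ranks of 2989 and 758, so replicate 1 alone would not have placed it among the first 1861. Below the threshold, lin-53, which encodes a histone-binding WD40 protein, had 48.9 at rank 2012, and nap-1, a histone chaperone gene, had 47.2 at rank 2130. The windows of 5 listed genes, hil-2, hil-3, hil-4, hil-5 and hil-6, which encode further H1-like proteins, held ATGTGTCCC, and none of the 5 was bound; the strongest series candidate among them had a signal of 24.3, at hil-3.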

How the data were processed

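Per the labels and the texts deposited with the libraries, the lists hold regions called from the ChIP alignments of each replicate against a control, candidate lists before thresholding and peaks thresholded by irreproducible discovery rate. Each region carries a signal, the authors' score in the deposited lists, whose scale is not given. The aligner, caller, versions, threshold and treatment of reads that match several places were not given in the sources used here. Lists on build ce11 were used, and those on ce10 were not used here. Depth is unknown, so no interval for counting error is given. The labels do not say whether the 2 biological replicates came from separate cultures, so their spread may be technical.

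Genes came from Ensembl release 115, in which identical histone copies share names (50 names for 72 genes); the 72 symbols are those of RefSeq, matched by gene identifier for 72 of 72. Histone classes came from annotated product descriptions, except that his-24 was set as H1 by its name. Summits were assigned to promoter windows, head-to-head gaps were taken between 5′ ends under 1000 bp apart, and words of 36 and of 50 bases were counted over the genome on both strands, with Python 3.11.15, numpy 2.4.6, pandas 2.3.3 and Biopython 1.88. Counting was checked on simulated data. The members, lists and words were chosen with earlier results of these data known; ATGTGTCCC and the head-to-head pairs were chosen after seeing the data. With 1 group no test was run. Named genes were all bound histone genes, his-24, his-71 and his-72, the strongest candidate of each unbound cluster, up to 4 bound genes of the supply list, and other genes that share a histone peak; other genes and the unbound pairs were named after their values were seen. Alternatives covered windows, overlap, thresholds, replicates, 5′ ends, nearest gene, cluster gap and merging.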

Additional observations from a re-analysis of the deposited data

How the results depend on the processing

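Of 49 values recomputed under alternatives, 47 stayed within 1.5 times the reported value. The 2 that moved were the distinct histone peaks, 4 with the strongest 930 thresholded peaks (8 genes, beside 1.55% of all genes), and the bound histone genes, 7 when each summit counted only for the nearest 5′ end (beside 3.24% of all genes), which by construction splits head-to-head pairs. To leave out a replicate, the strongest 1861 candidate regions of the other replicate were taken as peaks, with no new IDR test. This gave 12 to 13 bound genes, 7 to 9 peaks, 6 to 7 clusters, 3 to 4 supply genes and 5 bound pairs each time. Beside these stood 4.55% of all genes and 8.73% of all pairs without replicate 1, and 3.80% and 6.13% without replicate 2. The added bound gene, his-24, came without replicate 2. In the whole candidate list of a single replicate, 26 to 30 histone genes had a candidate. The share of all genes with one was not computed for those lists. A window from 2000 bp upstream to 500 bp downstream gave 16 genes, adding his-72, his-34, his-35 and his-1, beside 5.95% of all genes. The shared word lay whole within 25 bp of 4 summits, a limit chosen after seeing the data, as were the alternatives for pairs. No paired analysis was possible because no result comes from a test between groups. Depth being unknown, an absent region cannot be told from one too shallow to be listed, and in repeated gaps not from reads that could not be placed.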

Other observations

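Peaks outside histone promoter windows were listed near a few histone clusters. A thresholded peak of signal 67.9 at rank 1279 lay 3544 bp downstream of the his-67 5′ end, in the promoter window of sys-1, which encodes a beta-catenin. A further peak of signal 67.4 at rank 1289 lay 3188 bp downstream of the his-38 5′ end, in no promoter window. Of the 6 peaks elsewhere that held ATGTGTCCC within 75 bp of the summit, the strongest, of signal 157 at rank 346, lay 4159 bp from the nearest 5′ end, that of plx-2, a plexin gene, and the next, of signal 130 at rank 491, lay 715 bp from that of nspc-17.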
